A study of Mus musculus with 6 samples.

Results

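Il1r1, Nfkbiz and Cxcl1 stand at 3 levels of the interleukin 1 response, as a receptor, a nuclear regulator of NF-kappaB and a target chemokine of NF-kappaB. They were taken by gene symbol from the deposited list of probe sets altered by GW4064, and they are 3 of the 87 genes that it names by a single symbol. Each gene had 1 probe set in the list, out of 22626 probe sets tested on the arrays. The list was made from the same 6 mice that are described here, so the direction of the 3 genes was fixed by their selection and their levels are given as a description, without a test.

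The livers were those of 6 adult C57BL/6J mice of wild type genotype, and each was profiled on 1 Affymetrix array. In the treated group, 3 mice were dosed with GW4064, a man-made compound that activates the bile acid sensor FXR (farnesoid X receptor). They were given 100 mg per kg body weight 3 times, at 8 am, at 6 pm and again at 8 am of the next day, and the 3 control mice were given vehicle at the same times. Tissue was taken 2 hours past the last dose, from animals of both groups that had gone without food for the night. Whole liver was profiled, so that a change in the number of cells of a type cannot be told apart from a change in RNA per cell.

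Interleukin 1 is an inflammatory cytokine that binds the receptor encoded by Il1r1. The bound receptor recruits adaptor proteins and kinases, which release the transcription factor NF-kappaB from its cytoplasmic inhibitors. Nfkbiz encodes IkappaB-zeta, a nuclear member of the inhibitor family that is itself induced by interleukin 1 and is required for a subset of NF-kappaB targets, Lcn2 among them. Cxcl1 encodes a secreted chemokine that attracts neutrophils, and it is an NF-kappaB target known for its fast induction in the inflamed liver.

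Because Cxcl1 is known as an NF-kappaB target, the RefSeq promoters of the genes are shown, with the NF-kappaB letters that a search found in them. The 250 bases before each annotated start were searched on both strands for GGNNTTTCC and for its special case GGAATTTCC, letters that were settled on after the Cxcl1 promoter had been read. Promoters were found for 2 of the 3 genes, Cxcl1 with 1 start and Il1r1 with 2. All are in build GRCm38.p6, on the plus strand, written 5′ to 3′ with matches to GGNNTTTCC on either strand in capitals. The Cxcl1 window is chr5:90890995-90891244, and the Il1r1 windows are chr1:40224830-40225079 for the first start and chr1:40266336-40266585 for the second.
Cxcl1: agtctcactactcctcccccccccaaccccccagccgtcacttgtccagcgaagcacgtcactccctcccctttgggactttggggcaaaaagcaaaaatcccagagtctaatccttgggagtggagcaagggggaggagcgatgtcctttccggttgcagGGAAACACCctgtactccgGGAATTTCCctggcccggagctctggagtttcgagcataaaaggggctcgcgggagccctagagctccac
Il1r1, first start: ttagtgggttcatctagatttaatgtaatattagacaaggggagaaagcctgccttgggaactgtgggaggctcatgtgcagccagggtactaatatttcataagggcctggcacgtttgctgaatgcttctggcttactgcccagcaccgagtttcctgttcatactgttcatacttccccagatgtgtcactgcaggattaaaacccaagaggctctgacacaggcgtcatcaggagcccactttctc
Il1r1, second start: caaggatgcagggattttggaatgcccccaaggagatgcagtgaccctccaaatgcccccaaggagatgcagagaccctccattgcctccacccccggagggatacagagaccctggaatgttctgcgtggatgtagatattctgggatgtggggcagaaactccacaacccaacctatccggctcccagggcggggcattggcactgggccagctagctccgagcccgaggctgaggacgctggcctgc

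The Cxcl1 window held GGAATTTCC once, from 70 to 62 bases before the start. This run was found in 94 of 32851 RefSeq promoter windows of the same length, or 0.286%. The looser GGNNTTTCC matched the Cxcl1 window at 2 places, the run just named and a match on the minus strand from 89 to 81 bases before the start. It was in neither Il1r1 window, and 4.93% of all windows held it. Of the other pathway genes described below, Lcn2, Saa1 and Saa2 held neither set of letters in their windows, and Cp held the looser ones once, at 1 of its 2 starts. The FXR element of the inverted repeat type, AGGTCA and its reverse complement spaced by 1 base, was in none of the 3 windows and in 2 of the 32851. These matches describe letters in the reference and were not measured in these livers, and no match says only that the letters are not in that window.

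The arrays were set side by side as wholes first. The 3 treated mice differed in how far their arrays lay from the vehicle arrays. A probe set at least 1 log2 unit away from the vehicle mean was counted 388 times in GW4064 replicate 1, 125 times in replicate 2 and 48 times in replicate 3. Each vehicle array, set against the mean of the other vehicle arrays, gave 41 to 62. By this measure replicate 3 was no farther from vehicle than the vehicle mice were from one another. The references differ, however, being 3 vehicle arrays for a treated array and 2 for a vehicle array, so the counts are not strictly comparable. The part of these differences between whole arrays in the results below was not tested. None of the 53 markers fixed for neutrophils, macrophages, endothelial, stellate and biliary cells and hepatocytes had a probe set with a gene name here, so the cell make-up of the livers and the tissue label were not checked by markers.

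The receptor gene Il1r1, on chromosome 1 (band B), had log2 levels of 8.74, 8.12 and 8.31 in vehicle replicates 1, 2 and 3. In GW4064 replicates 1, 2 and 3 it was at 10.74, 10.28 and 9.05. All 3 treated mice lay above the 3 control mice, and the treated mouse nearest to them, replicate 3, was 0.31 above the highest control. The group means were 8.39 ± 0.31 and 10.02 ± 0.88 (SD, n = 3 each). They differed by 1.63 on the log2 scale (limma SE 0.38), which is 3.10-fold. Here and below the SE is from limma, which shares the spread between probe sets, and does not follow from the SDs of the gene alone. Il1r1 was also the most variable of the 3 genes among the controls, with a range of 0.61 between vehicle mice, which is larger than the gap that parts replicate 3 from them.

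The regulator gene Nfkbiz, on chromosome 16 (band C1.2-C1.3), was at 6.36, 6.54 and 6.60 in vehicle replicates 1, 2 and 3. The treated replicates 1, 2 and 3 had 8.08, 7.89 and 7.15. The groups did not overlap, and the lowest treated mouse was 0.55 above the highest control. The means were 6.50 ± 0.13 and 7.71 ± 0.49 (SD, n = 3 each), which makes a difference of 1.20 (limma SE 0.22) or 2.30-fold. Nfkbiz thus had the smallest difference of the 3 genes and also the smallest spread in both groups.

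The chemokine gene Cxcl1, on chromosome 5 (band E-F), had vehicle levels of 7.09, 6.74 and 7.19. In GW4064 replicates 1, 2 and 3 it was at 10.97, 11.35 and 7.91. Replicates 1 and 2 were far above the controls, while replicate 3 was 0.72 above the highest of them. The means were 7.01 ± 0.24 and 10.08 ± 1.89 (SD, n = 3 each). They differed by 3.07 (limma SE 0.77), which is 8.40-fold. The SD among treated mice was 8.01 times that among controls, against 2.79 times for Il1r1 and 3.91 times for Nfkbiz.

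**Figure D1:**
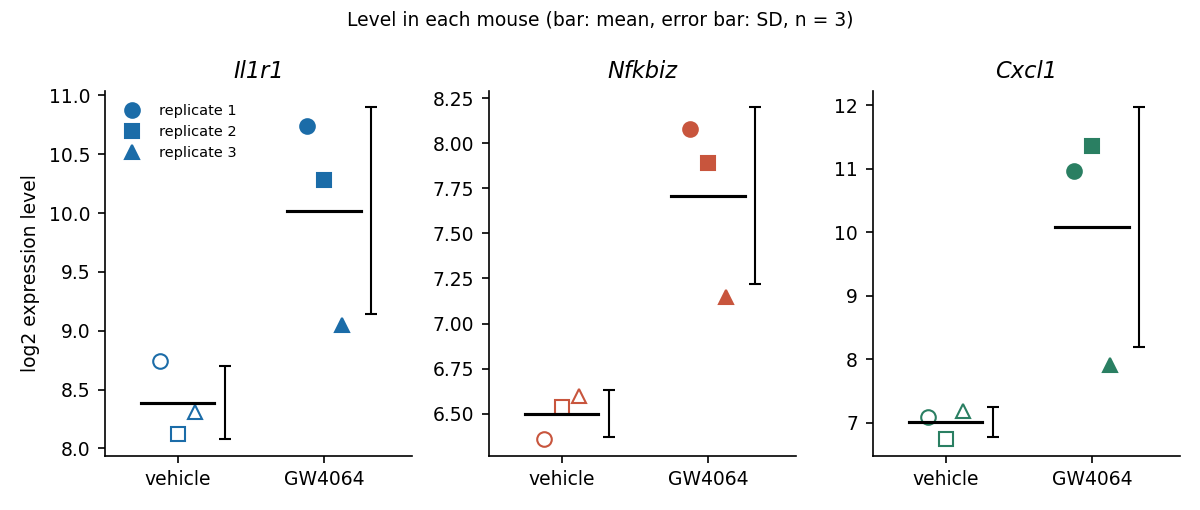
Log2 expression level of each gene (y axis, a scale of its own in each panel) in the 3 vehicle mice (open symbols) and the 3 GW4064 mice (filled symbols), with a bar at the mean and an error bar of 1 SD. Replicate 3 is the lowest treated mouse in all 3 panels, at 9.05, 7.15 and 7.91, and it lies above every control mouse.

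Among all 22626 probe sets ordered by the difference of the means, Cxcl1 was at place 5, Il1r1 at place 22 and Nfkbiz at place 47 from the top. Ordered by the spread among treated mice, they were at places 12, 109 and 450. The median difference of the 3 genes was 1.63, and that of all tested probe sets was -0.0034. By limma, 0 of the 3 genes and 0 of the 22626 probe sets (0%) had a Benjamini-Hochberg adjusted p under 0.05. Without adjustment, 1985 probe sets had a p under 0.05 by limma and 1427 by the unpaired test that the methods name. All 3 genes were at least 1.5-fold higher at an unadjusted p under 0.05, as were 0.632% of all probe sets. The groups did not overlap with the treated mice higher for 3 of the 3 genes and for 6.7% of all probe sets. Since the genes were selected on this contrast, nothing is read from these counts.

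The treated mice were then ordered within each gene. Il1r1 and Nfkbiz had the same order, with replicate 1 highest, then replicate 2, then replicate 3. In Cxcl1 replicate 2 was highest, then replicate 1, and replicate 3 was again the lowest. The exchange of replicates 1 and 2 rested on small gaps. Replicate 1 was 0.46 above replicate 2 in Il1r1 and 0.19 above it in Nfkbiz, and replicate 2 was 0.38 above replicate 1 in Cxcl1. Each of these gaps was smaller than the range between the control mice for the same gene, which was 0.61, 0.24 and 0.45. Replicates 1 and 2 therefore cannot be ordered beyond the spread seen among controls in any of the 3 genes.

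The place of replicate 3 was set by larger gaps. It lay 1.23 below replicate 2 in Il1r1, 0.74 below it in Nfkbiz and 3.06 below replicate 1 in Cxcl1. Each of these gaps was above the range between control mice of that gene. The control mice shared no such order. Vehicle replicate 1 was the highest in Il1r1 and the lowest in Nfkbiz, and vehicle replicate 3 was the highest in Nfkbiz and Cxcl1. With 3 mice a group, the order has no test.

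As folds over the vehicle mean, Cxcl1 was 15.6-fold, 20.3-fold and 1.87-fold in GW4064 replicates 1, 2 and 3. Il1r1 was 5.10-fold, 3.71-fold and 1.58-fold. Nfkbiz was 2.98-fold, 2.61-fold and 1.57-fold. In replicate 3 the 3 genes thus had similar folds, and in the other mice they parted. The fold of Cxcl1 was 3.06 times that of Il1r1 in replicate 1, 5.48 times in replicate 2 and 1.19 times in replicate 3. The fold of Il1r1 was 1.71, 1.42 and 1.01 times that of Nfkbiz in the same mice. On the log2 scale, replicate 3 reached 28.0% of the height of replicate 1 above the vehicle mean in Il1r1, 41.2% in Nfkbiz and 22.8% in Cxcl1.

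**Figure D2:**
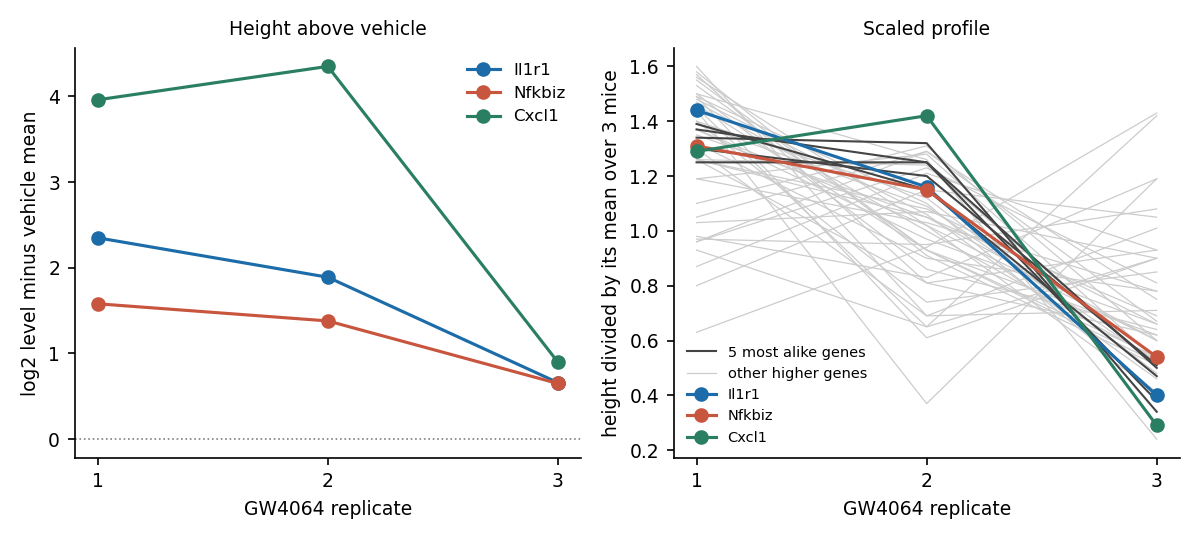
Left, log2 level of each GW4064 mouse minus the vehicle mean for the 3 genes, and right, the same height divided by its own mean over the 3 mice, for the 3 genes, the 5 genes most like them and the other genes listed as higher. Lines join the values of 1 gene and the replicate numbers have no order; Il1r1 and Nfkbiz are highest in replicate 1 and Cxcl1 in replicate 2, and all 3 are lowest in replicate 3.

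The order was counted over other probe sets for comparison. Of the 60 probe sets listed as higher, 34 (56.7%) had the order of Il1r1 and Nfkbiz and 10 (16.7%) that of Cxcl1. Replicate 3 was the lowest treated mouse in 44 of the 60 (73.3%), so that the 3 genes share this feature with most of the list. Over all 22626 probe sets replicate 3 was lowest in 33.5%, and the orders of Il1r1 and of Cxcl1 were seen in 20.9% and 12.6%. That set mixes probe sets higher and lower in GW4064, so it is not a like comparison for a list of higher ones. Of the 143 probe sets higher at 1.5-fold and unadjusted p under 0.05 by limma, replicate 3 was lowest in 79.7%. The orders of Il1r1 and of Cxcl1 were seen in 69.2% and 10.5% of these. A low replicate 3 is therefore not particular to the 3 genes among the listed ones.

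**Figure D3:**
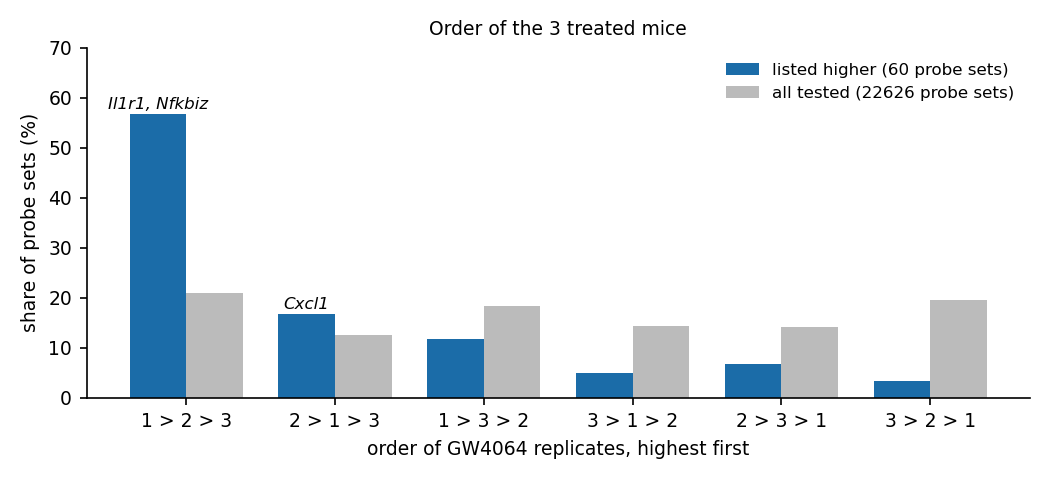
Share of probe sets (y axis, percent) with each of the 6 possible orders of the GW4064 replicates (x axis, highest first), for the 60 probe sets listed as higher and for all 22626 tested. The order of Il1r1 and Nfkbiz holds 56.7% of the listed and 20.9% of all probe sets, and that of Cxcl1 16.7% and 12.6%.

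The heights of the 3 genes in 1 treated mouse were also set against those in another over the whole array. Cxcl1 lay close to the line of equal heights for replicates 1 and 2, at 3.96 and 4.35, and far below it for replicates 1 and 3, at 3.96 and 0.90. Il1r1 had heights of 2.35, 1.89 and 0.66 in the 3 mice, and Nfkbiz had 1.58, 1.38 and 0.65.

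**Figure D4:**
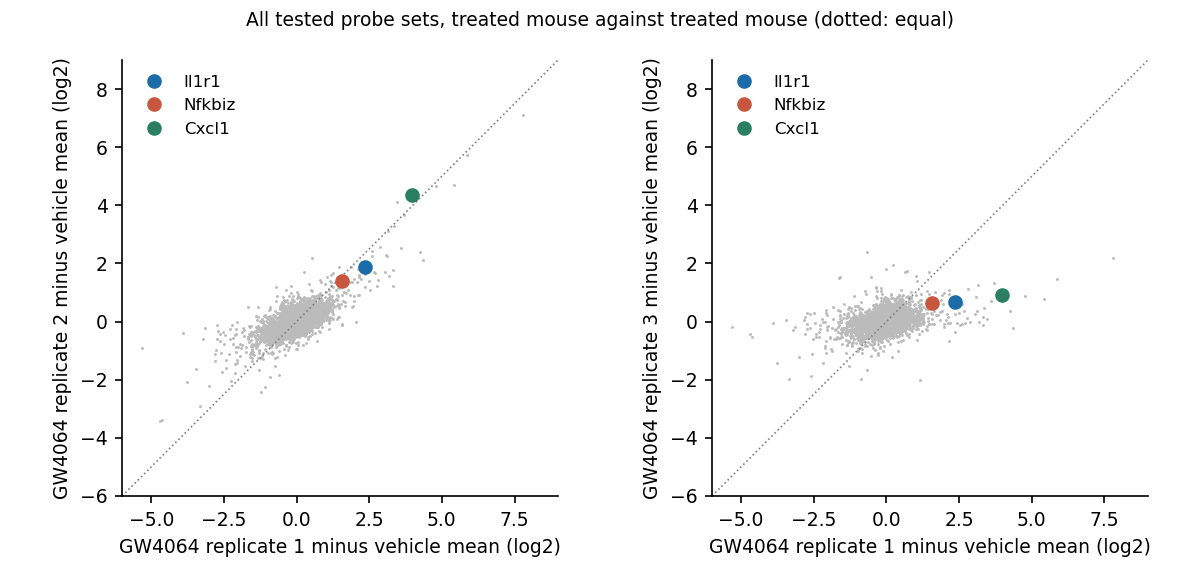
Log2 height above the vehicle mean in GW4064 replicate 1 (x axis) against replicate 2 (left) and replicate 3 (right) for all 22626 probe sets, with the 3 genes in colour and a dotted line where both mice are equal. Cxcl1 is at 3.96 in replicate 1 and at 4.35 and 0.90 in the others, so it leaves the line in the right panel.

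The other genes of the pathway could be followed only where the deposited list names them. Of 64 genes in lists of interleukin 1 ligands and receptors, adaptors and kinases, NF-kappaB subunits and inhibitors, and NF-kappaB targets, 7 had a named probe set. All 7 had higher means in the treated mice and 0 had an adjusted p under 0.05 by limma. None of the 6 ligands, the 13 adaptors and kinases or the 5 NF-kappaB subunits was among them, and their levels are not analysed here. Il1r1 was the 1 gene of 7 receptors, Nfkbiz the 1 of 9 inhibitors and nuclear regulators, and Cxcl1 the 1 of 13 chemokines, cytokines and adhesion molecules. The other 4 were acute phase genes, Lcn2, Saa1, Saa2 and Cp, of 11 in their list. A gene enters only if it was listed as altered on these arrays, so the shared direction is not independent evidence.

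By their values the 4 acute phase genes had the order of Il1r1 and Nfkbiz, with replicate 3 lowest. Lcn2, which encodes the iron-scavenging protein lipocalin 2, lay 7.80, 7.09 and 2.18 above its vehicle mean in GW4064 replicates 1, 2 and 3. Saa2, a serum amyloid A gene, lay 5.86, 5.73 and 1.48 above it. The near-identical gene Saa1 lay 3.16, 3.11 and 1.27 above it, and its other probe set gave 3.70, 3.68 and 1.34. Cp, the gene of the copper carrier ceruloplasmin, had heights of 1.11, 0.73 and 0.30. In Lcn2, Saa1 and Saa2 replicates 1 and 2 were apart by 0.70, 0.04 and 0.12, less than the 0.75, 0.75 and 0.69 between control mice, so these mice cannot be ordered there either. In Cp they were apart by 0.39, more than the 0.17 between control mice. The 2 Saa genes cannot be fully separated by hybridization, and the probe set of Saa2 has a suffix that marks possible detection of other transcripts.

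Likeness to the 3 genes was measured on the scaled profile, that is the height of each treated mouse above the vehicle mean divided by the mean of the 3 heights. The scaled profiles were 1.44, 1.16 and 0.40 for Il1r1, 1.31, 1.15 and 0.54 for Nfkbiz, and 1.29, 1.42 and 0.29 for Cxcl1. Il1r1 and Nfkbiz were nearest to each other, at a Euclidean distance of 0.188. Cxcl1 was at 0.316 from Il1r1 and at 0.361 from Nfkbiz. Over the 45 other named genes with higher means, the 5 nearest to the mean profile of the 3 genes were Lcn2 (0.038), Saa2 (0.104), Saa4 (0.115), Ctsc (0.116) and Fn1 (0.126). The median distance of the 45 genes was 0.390 and the farthest was at 1.28. Saa4 encodes a serum amyloid A protein that the liver makes constitutively, Ctsc encodes cathepsin C, a lysosomal protease that activates serine proteases of neutrophils, and Fn1 encodes fibronectin.

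Of these 45 genes, 10 were at or within 0.217, the distance of Cxcl1 from the mean profile. Over all 164 probe sets with a difference of at least 1.5-fold upward, named or not, 19 (11.6%) were within it. The 3 genes themselves are counted in the 19 and the 164, but not in the 10 and the 45. They lie within this distance by construction. The profile is taken over 3 mice, and the 3 genes themselves set the mean from which it is measured, so these distances order the genes and carry no test.

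The FXR response of the same mice was read beside these genes from Nr0b2 and Cyp8b1, which were chosen after their values were seen. Nr0b2, the FXR-induced gene of the small heterodimer partner, lay 2.81, 1.44 and 1.11 above its vehicle mean in GW4064 replicates 1, 2 and 3. Its replicates 2 and 3 were apart by 0.33, within the 0.48 between control mice, and its replicates 1 and 3 by 1.70, beyond it. Cyp8b1, a bile acid synthesis gene that FXR activation lowers, had values of -3.76, -2.08 and -1.42 relative to the vehicle mean, and replicates 2 and 3 were apart by more than the 0.61 between control mice. Replicate 3 was thus the treated mouse nearest to vehicle in both FXR genes as well. How it compared with the 3 genes depended on the mouse it was set against. Relative to replicate 2, replicate 3 had 76.8% of the distance from vehicle in Nr0b2 and 68.2% in Cyp8b1, against 34.8% in Il1r1, 46.9% in Nfkbiz and 20.8% in Cxcl1. Relative to replicate 1 it had 39.4% in Nr0b2 and 37.9% in Cyp8b1, against 28.0%, 41.2% and 22.8%, so that Nfkbiz was then above both FXR genes. With 1 replicate 3, these shares have no test.

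Finally the differences were recomputed without each mouse in turn. Without GW4064 replicate 3 the difference was 2.12 (SE 0.20) in Il1r1, 1.48 (SE 0.12) in Nfkbiz and 4.15 (SE 0.17) in Cxcl1. These were the highest values for each gene, and they had the smallest SE. Replicate 3 was the lowest treated mouse in each gene and lay apart from the others. Its omission therefore had to raise the difference and narrow the treated spread, so these values restate its place. Without GW4064 replicate 1, Il1r1 and Nfkbiz had their lowest values, 1.28 (SE 0.34) and 1.02 (SE 0.20). The lowest value of Cxcl1, 2.43 (SE 0.76), was found without GW4064 replicate 2. In fold, Cxcl1 ran from 5.40 to 17.8 over these 6 omissions. Its fold moved by over 1.5 times without GW4064 replicate 2 or replicate 3, whereas Il1r1 (2.42-fold to 4.35-fold) and Nfkbiz (2.02-fold to 2.79-fold) stayed within 1.5 times of their values with all mice.

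**Figure D5:**
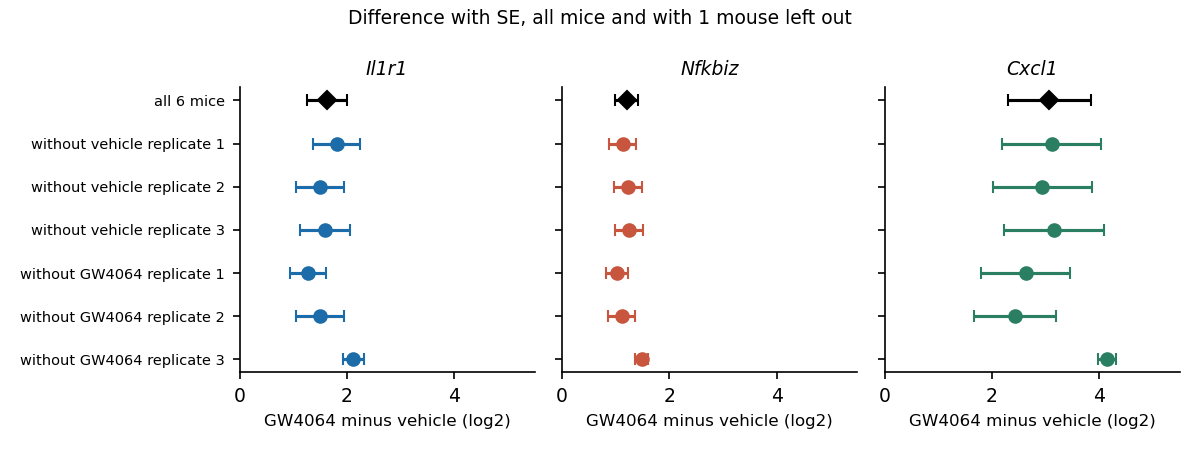
Difference of the means, GW4064 minus vehicle, on the log2 scale (x axis) with its SE from limma, for all 6 mice (black diamonds) and with 1 mouse left out (circles). The values without GW4064 replicate 3, 2.12, 1.48 and 4.15, are the highest for each gene and have the smallest error bars. This restates that replicate 3 is the lowest treated mouse in each gene.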

How the data were processed

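RNA from 6 mouse livers was hybridized to 1 Affymetrix array each. The authors deposited log2 expression levels per probe set, made with Affymetrix Power Tools per the methods; how probes were summarised, and the version, is not given in the sources used here. Labels and methods state Mouse Gene 1.0 ST arrays, but the deposited table's header and the probe set identifiers belong to Mouse430A_2. The authors' table of altered probe sets (fold of at least 1.5, unpaired test) holds 110 probe sets, of which 99 have 1 symbol, 7 several and 4 none. It was used only for gene names and listed direction; its fold changes were not used. It was the only source of names, so other probe sets are unnamed here. The 99 Entrez identifiers were all found in RefSeq (GRCm38.p6), which updated 10 symbols. Chromosome bands are those of that table, and promoter coordinates are RefSeq's.

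Groups and replicate numbers come from sample titles. Of 22690 probe sets, 64 controls were set aside. Median log2 levels were 5.87 to 5.89 on the 6 arrays. The groups were compared in R 4.3.3 with limma 3.58.1 (lmFit, eBayes, two-sided, group as the only term) with Benjamini-Hochberg adjustment over 22626 probe sets and no filter. The script was tested on simulated data. The number of arrays limits the precision, and p-values rest on the spread between these mice, which limma shares between probe sets. Where several probe sets name 1 gene, the brightest on average stands for it.

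The 3 genes, the pathway and marker lists and the tests were chosen with earlier results of these data known. Besides the 3 genes, the rule for naming took the pathway genes with a named probe set and the 5 genes of nearest profile. Alternatives were the methods' t-test, quantile normalization, omission of dim probe sets, limma-trend, array weights, the replicate number as a block, the omission of each mouse and another measure of likeness.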

Additional observations from a re-analysis of the deposited data

How the results depend on the processing

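Under quantile normalization the differences of Il1r1, Nfkbiz and Cxcl1 were 1.63, 1.19 and 3.07, and with array weights 1.6, 1.23 and 3.33. The replicate block cannot change them, since each replicate number has 1 mouse in each group. The omission of each mouse gave 1.28 to 2.12, 1.02 to 1.48 and 2.43 to 4.15. In each case the difference moved by less than 1 SD and kept its direction. For the omissions this was bound to happen with 3 mice a group and no overlap, so no stability is read from it. None of the 3 genes had a further named probe set to try. Under quantile normalization 2 of the 3 genes again had replicate 1 highest, then replicate 2, then replicate 3. Only this count was compared, not the order gene by gene. By Pearson correlation over the 6 arrays, 4 of the 5 genes of nearest profile were shared, Saa1 replacing Saa4, and under quantile normalization all 5. With all mice, each alternative, the replicate block included, gave 0 probe sets at an adjusted p under 0.05. Omitting 1 mouse gave 0 to 70, the 70 without GW4064 replicate 3. At 1.5-fold in either direction and unadjusted p under 0.05 there were 283 by limma, of which 143 were higher in GW4064. There were 97 by the methods' t-test, which does not share the spread between probe sets. The authors' list holds 110, and the reason for the difference from 97 was not tested. Omitting 1 mouse gave 158 (GW4064 replicate 1) to 573 (GW4064 replicate 3), and the cause was not tested. The replicate block gave 304. The numbers name no pairing, and deviations of same-numbered mice correlated at -0.00194, 0.0533 and -0.0337.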
